A study of Mus musculus with 84 samples.

Results

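Genes of the heat shock and protein folding machinery were followed across mammary glands, mammary tumors and lung metastases of transgenic mice. The set was chosen by gene symbol alone: every clone with a single symbol that starts with Hsp, Dnaja, Dnajb, Dnajc, Cct and a digit, Pdia, Fkbp or Ppi and a letter, or that equals Canx, Calr or Tcp1. On the larger arrays, called 15k, this took 82 clones of 60 genes, out of 7766 genes that had a clone with a single symbol. On the smaller arrays, called 8.7k, it took 55 clones of 47 genes out of 5725, and all 47 were also on the 15k arrays. Clones of a gene were averaged, and 17 genes had more than 1 clone on the 15k arrays. In 3 of the 60 genes only the letters of the name fit: Hspg2 is the matrix proteoglycan perlecan, Ppip5k1 is an inositol pyrophosphate kinase, and Hspb11 is a component of intraflagellar transport. Several well-known members had no clone with a single symbol of their own and are not analysed here, among them Hspa5, Hspa8, Hspd1, Hspb1, Canx, Tcp1 and the Hsp90 genes. Hspd1-ps3 is a pseudogene nearly identical in sequence to Hspd1, so its signal cannot be assigned to either.

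RNA of each tissue was labeled with Cy5 and hybridized to spotted cDNA clones against one Cy3-labeled reference RNA, pooled from ovary, liver, spleen, kidney, thymus, pancreas, lung and lactating mammary gland. Each value is the log2 ratio of sample to reference, so a negative level says that a gene was weaker than in that pool, not that it was absent. The 15k arrays held 5 mammary glands of 9-week-old virgin nontransgenic FVB mice (virgin glands), 7 hyperplastic glands of 9-week-old MMTV-Wnt-1 mice, 23 tumors of MMTV-Wnt-1 mice (Wnt-1 tumors), 12 tumors of MMTV-Neu mice aged 32 to 60 weeks (Neu tumors), and 3 samples of intestinal fat from 12-week-old virgin FVB mice. They also held 10 lung metastases of MMTV-Wnt-1 mice, 3 of MMTV-Neu mice, and 2 that grew in nontransgenic mice from Neu tumor cells given by tail vein injection. The 8.7k arrays held 10 other tumors of MMTV-Wnt-1 mice, 6 of MMTV-Wnt-1 mice on a P53 -/- background aged 9 to 14 weeks, and 3 further tumors that are not analysed here. One age range, 9 to 56 weeks, was given for the Wnt-1 tumors of both kinds of array together, so the age range differed with p53 genotype as well. In both transgenic lines the enhancer in the long terminal repeat of mouse mammary tumor virus drives the oncogene, Wnt-1 in one and a rat cDNA of wild-type Neu in the other. The Wnt-1 mice were a mixture of FVB, SJL and C57BL/6 and the Neu mice were FVB, and tumor ages differed as given. Oncogene, strain and age therefore cannot be told apart in the comparison of the tumor types. Hyperplastic glands and Wnt-1 tumors also differed in strain from the virgin glands, and tumors differed in age range from glands. In those comparisons strain or age cannot be told apart from the kind of tissue either. The labels do not say that replicates came from separate animals, so p-values measure only the spread between these samples.

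Protein folding in mammalian cells is divided among chaperone families by compartment. In the cytosol, Hsp70 proteins bind unfolded chains under the control of J proteins (Dnaj genes) and of Hsp110 exchange factors, the double ring of the chaperonin CCT encloses newly made actin and tubulin, and small heat shock proteins hold unfolding proteins in solution. In the endoplasmic reticulum (ER), calreticulin retains glycoproteins and protein disulfide isomerases pair cysteines. FK506-binding proteins and cyclophilins, the immunophilins, turn the bond before proline in most compartments. Many cytosolic members are induced by heat shock factor 1 through repeats of the letters GAA, and many ER members by the unfolded protein response, whose factors ATF6 and XBP1 read the ER stress response element.

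The promoters of a few members are printed here because the main differences described below are theirs. Of the 60 genes, 49 had a start in the RefSeq promoter table (GRCm38.p6), which gives 250 bases before and 50 after each start. The ER stress response element was searched on both strands as CCAAT, any 9 bases and CCACG. A gene was counted if any of its listed promoters held the letters. The element was found in 0.137% of 27025 genes and in 2 of the 49 genes, Calr and Dnajc3. It lies in capitals, on the opposite strand in Calr. Pdia4, whose levels resembled those of Calr, is shown beside them and has no exact match. It does hold the shorter CCAAT box, found in 41.1% of all genes and in 22 of the 49.
Calr (chr8:84846882-84847181, minus strand): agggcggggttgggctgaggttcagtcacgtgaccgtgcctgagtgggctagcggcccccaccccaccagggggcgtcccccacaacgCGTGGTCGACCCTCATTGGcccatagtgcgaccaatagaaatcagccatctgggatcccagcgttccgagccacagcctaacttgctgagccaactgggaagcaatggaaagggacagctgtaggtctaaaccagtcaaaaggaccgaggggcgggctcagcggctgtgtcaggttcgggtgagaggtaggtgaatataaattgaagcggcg
Dnajc3 (chr14:118937682-118937981, plus strand): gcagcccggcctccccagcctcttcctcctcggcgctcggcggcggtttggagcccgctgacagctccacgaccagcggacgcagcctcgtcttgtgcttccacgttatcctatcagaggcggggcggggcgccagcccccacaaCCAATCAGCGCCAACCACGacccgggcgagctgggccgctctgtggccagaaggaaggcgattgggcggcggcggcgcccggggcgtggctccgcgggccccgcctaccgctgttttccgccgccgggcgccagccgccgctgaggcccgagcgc
Pdia4 (chr6:47813463-47813762, minus strand): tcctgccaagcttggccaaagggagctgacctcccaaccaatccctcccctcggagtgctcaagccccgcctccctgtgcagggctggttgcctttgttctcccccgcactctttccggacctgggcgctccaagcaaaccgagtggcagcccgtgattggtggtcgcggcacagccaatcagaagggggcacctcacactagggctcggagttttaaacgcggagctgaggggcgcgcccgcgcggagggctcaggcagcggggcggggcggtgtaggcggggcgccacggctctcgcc

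For heat shock factor, the pair of repeats GAANNTTC, which reads the same on both strands, was found in 9.04% of all genes and in 9 of the 49. The pair with any 2 bases and a further GAA (both strands) was found in 0.662% of all genes and in 1 of the 49, Dnajb6. Fkbp4, Cct2 and Hspb8 are shown because they changed in different directions between the same tissues. The pair is in capitals. In Hspb8 it lies just after the gene start, not before it. Cct2 has 2 listed starts, and the promoter printed was picked because it holds the pair.
Fkbp4 (chr6:128438607-128438906, minus strand): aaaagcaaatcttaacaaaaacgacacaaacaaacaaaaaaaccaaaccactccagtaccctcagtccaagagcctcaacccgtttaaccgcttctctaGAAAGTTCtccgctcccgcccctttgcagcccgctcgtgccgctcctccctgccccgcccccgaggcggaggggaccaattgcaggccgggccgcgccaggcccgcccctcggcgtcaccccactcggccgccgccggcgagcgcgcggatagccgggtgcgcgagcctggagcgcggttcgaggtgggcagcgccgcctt
Cct2 (chr10:117063326-117063625, minus strand): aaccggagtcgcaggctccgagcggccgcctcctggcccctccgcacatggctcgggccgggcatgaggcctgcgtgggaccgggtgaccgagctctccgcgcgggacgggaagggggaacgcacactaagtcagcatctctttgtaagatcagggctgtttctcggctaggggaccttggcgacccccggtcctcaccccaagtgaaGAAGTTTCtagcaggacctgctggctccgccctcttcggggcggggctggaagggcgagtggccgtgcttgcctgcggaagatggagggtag
Hspb8 (chr5:116422815-116423114, minus strand): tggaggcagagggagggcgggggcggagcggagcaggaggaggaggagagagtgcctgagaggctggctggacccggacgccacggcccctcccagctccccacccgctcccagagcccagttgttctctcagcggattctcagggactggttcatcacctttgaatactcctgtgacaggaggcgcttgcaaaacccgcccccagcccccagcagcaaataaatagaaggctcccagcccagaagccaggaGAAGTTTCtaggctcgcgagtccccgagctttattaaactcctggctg
These matches describe letters only, and binding was not measured.

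Each gene was compared between groups with limma over all genes, and a gene was called at a Benjamini-Hochberg adjusted p under 0.05. Several comparisons share samples, since the virgin glands and the Wnt-1 tumors each enter 4 of them. Between Wnt-1 and Neu tumors, 36 of the 60 genes were called, 20 higher and 16 lower in Wnt-1 tumors, which is 60% of the set against 45.8% of all genes (22.8% higher, 23% lower). Against virgin glands, 13 genes were called in hyperplastic glands (5 higher, 8 lower, where 23.8% of all genes were called, 9.58% higher and 14.3% lower), 35 in Wnt-1 tumors (18 higher, 17 lower, against 52.4% of all genes, 26% higher and 26.5% lower) and 35 in Neu tumors (15 higher, 20 lower, against 55.6%, 26.8% higher and 28.8% lower). From hyperplastic glands to Wnt-1 tumors 30 were called, 16 higher and 14 lower, against 44.1% of all genes (21.9% higher, 22.2% lower). The median difference of the set in these 5 comparisons lay between -0.13 and 0.01 on the log2 scale, and that of all genes between -0.03 and 0.01. The set therefore had no common direction, and its families are described one by one. Of the 60 genes, 8 were called in none of the 8 comparisons on the 15k arrays: Dnajb14, Dnajc1, Dnajc16, Hspa13, Hspa4l, Hspd1-ps3, Pdia2 and Ppih.

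The levels of 2 groups did not overlap at all for 7 genes between virgin and hyperplastic glands (12.5% of all genes did not overlap), for 5 between hyperplastic glands and Wnt-1 tumors (8.14%), for 12 between virgin glands and Wnt-1 tumors (20.4%), for 17 between virgin glands and Neu tumors (27.7%) and for 4 between the tumor types (5.32%). Those 4 were Cct3, Cct4, Dnajb13 and Hspb8.

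**Figure D1:**
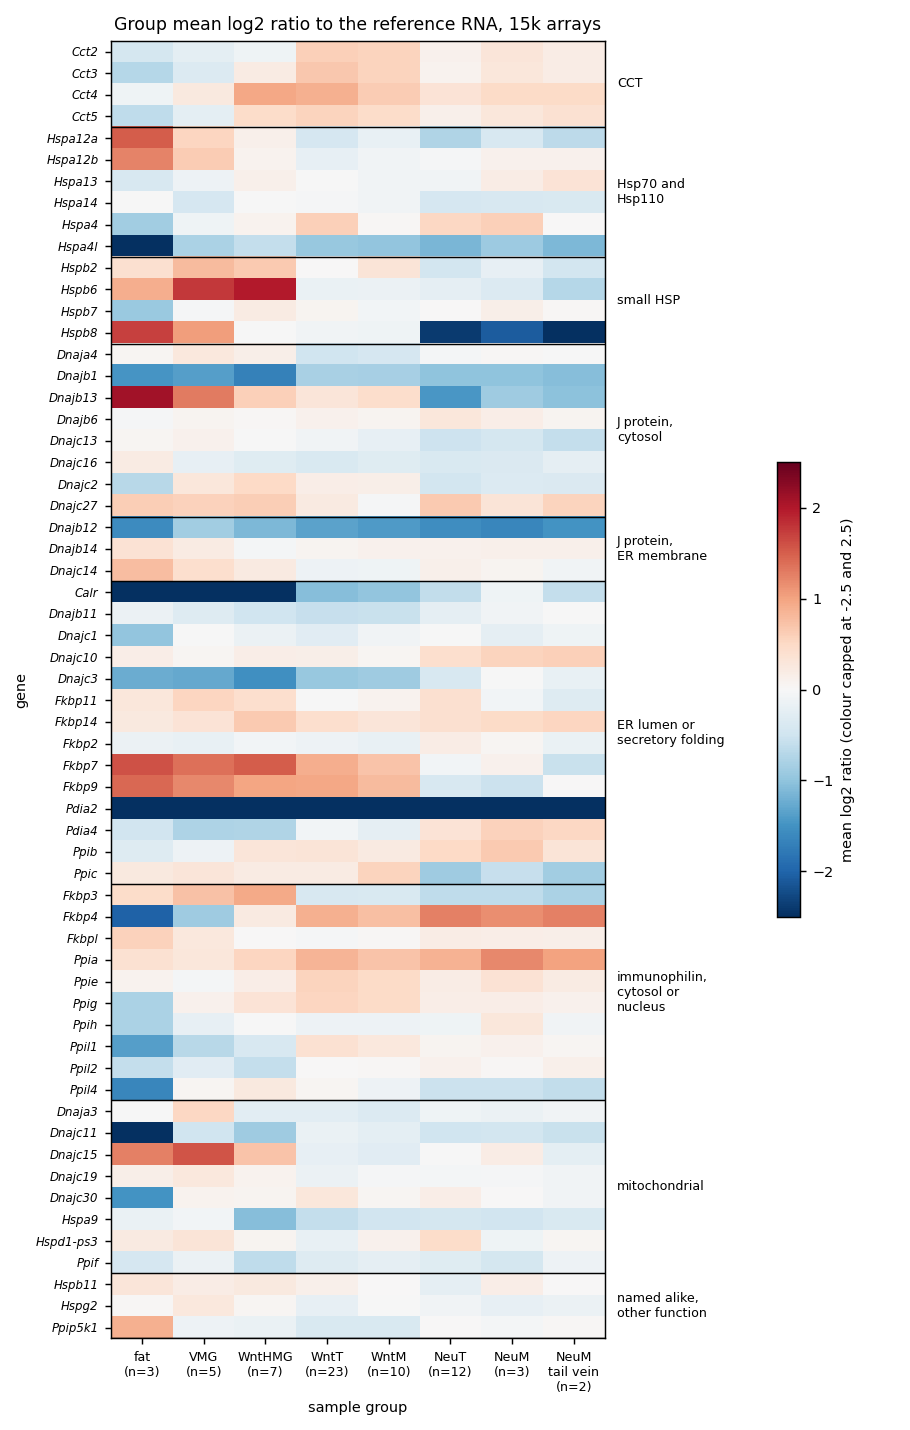
Mean log2 ratio to the reference RNA of each of the 60 genes (vertical axis, grouped by role) in the 8 sample groups of the 15k arrays (horizontal axis, n in brackets), with colour capped at -2.5 and 2.5. VMG stands for virgin glands, WntHMG for hyperplastic glands, T for tumors and M for metastases. The CCT rows are red in Wnt-1 tumors and Wnt-1 metastases, Calr is bluest in virgin glands, hyperplastic glands and fat, and Hspb8 is bluest in Neu samples.

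**Figure D2:**
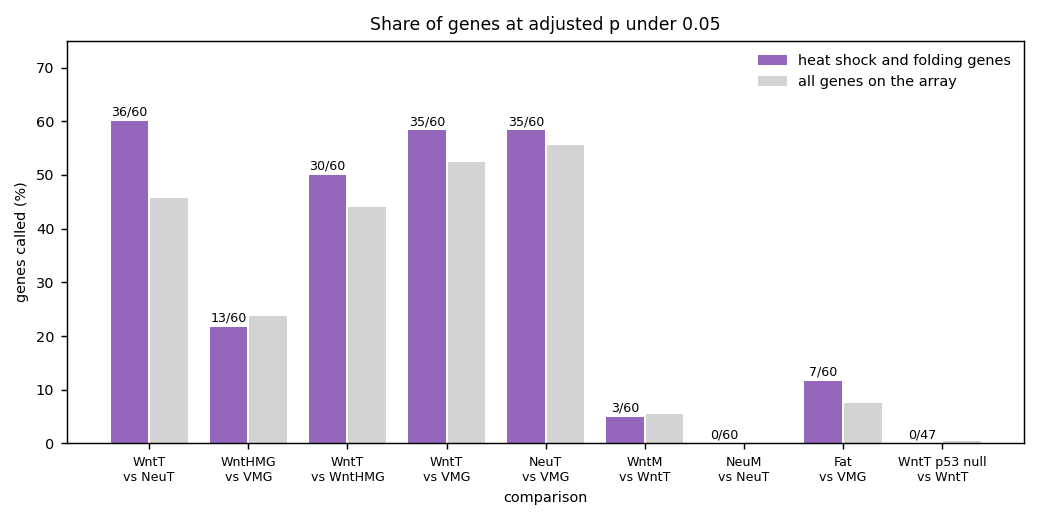
Share of genes (vertical axis, percent) at a limma adjusted p under 0.05 in each comparison (horizontal axis), for the folding genes and for all genes on the array. The folding genes stand highest above all genes between Wnt-1 and Neu tumors, where 36 of 60 were called.

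The quality of the arrays bears on some of these values. On the 15k arrays the log2 ratios of a single array spread with an SD of 0.936 in the median, and with an SD over 1.3 on 6 arrays: Wnt-1 tumors 42 and 49, Wnt-1 metastases 19, 50 and 52, and fat sample 44, which had the highest SD of 2.59. Among the folding genes, 22 clone values lay under a ratio of 0.01. Cell types differed between the groups as well. The mean of 10 adipocyte markers on each array was 2.22 to 2.55 in virgin glands, 0.99 to 1.44 in hyperplastic glands, -2.64 to -0.86 in Wnt-1 tumors and -2.38 to -1.26 in Neu tumors. The mean of 8 skeletal muscle markers on each array was 2.31 to 3.13 in virgin glands, 1.75 to 2.75 in hyperplastic glands, -1.72 to 0.56 in Wnt-1 tumors and -1.26 to 0.35 in Neu tumors. That of 5 myoepithelial markers was -0.32 to 0.99 in Wnt-1 tumors and -2.05 to -0.67 in Neu tumors. For 3 luminal markers it was -0.47 to 0.36 in virgin glands and 0.45 to 1.40 in hyperplastic glands. It was 0.51 to 1.89 in Wnt-1 tumors and -1.30 to 0.11 in Neu tumors, though of the 3 markers 1 was higher and 1 lower in Wnt-1 tumors. In such bulk samples, fewer cells of a type and less RNA per cell cannot be told apart, and the part of these cell types in the results below was not tested.

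The chaperonin CCT gave the most uniform result of the families. All 4 measured subunits, Cct2, Cct3, Cct4 and Cct5, were higher in Wnt-1 tumors than in Neu tumors (as were 22.8% of all genes) and than in virgin glands (26%), and Cct3, Cct4 and Cct5 were already higher in hyperplastic glands. Cct3 read -0.39, -0.23, -0.43, -0.41 and -0.27 in the 5 virgin glands. Its lowest, median and highest levels were 0.06, 0.20 and 0.33 in hyperplastic glands, 0.35, 0.67 and 1.29 in Wnt-1 tumors, and -0.25, 0.06 and 0.33 in Neu tumors. Among the larger arrays, no hyperplastic gland overlapped a virgin gland, and no Wnt-1 tumor overlapped a hyperplastic gland or a Neu tumor. In the other Wnt-1 tumors, on the smaller arrays, the lowest Cct3 level was 0.3302. It lay just below the highest hyperplastic gland (0.3318) and the highest Neu tumor (0.3345), and the rest of those tumors lay above both. The log2 difference of Cct3 was 0.55 ± 0.08 (SE, as in all differences below) from virgin to hyperplastic glands (adjusted p = 0.000313) and 0.47 ± 0.09 from there to Wnt-1 tumors (adjusted p = 5.54e-05). In Wnt-1 tumors Cct3 was 1.51-fold above Neu tumors (adjusted p = 6.34e-08). Neu tumors themselves exceeded virgin glands by 0.43 ± 0.10 (adjusted p = 0.00161), with overlap.

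Cct4 and Cct5 differed between the glands and were not called from hyperplasia to tumor. Cct4 ran from 0.06 to 0.48 in virgin glands, from 0.70 to 1.36 in hyperplastic glands, from 0.53 to 1.22 in Wnt-1 tumors and from 0.23 to 0.48 in Neu tumors. It differed by 0.72 ± 0.12 between the glands (adjusted p = 0.000915) and by -0.08 ± 0.08 from hyperplastic glands to Wnt-1 tumors (adjusted p = 0.454). Wnt-1 tumors were 1.45-fold above Neu tumors in Cct4 (adjusted p = 7.06e-10). Cct5 differed by 0.72 ± 0.11 between the glands (adjusted p = 0.000595) and by 0.10 ± 0.08 from hyperplastic glands to Wnt-1 tumors (adjusted p = 0.36). Both were separate between virgin and hyperplastic glands, and Cct5 overlapped between the tumor types, with 1.35-fold more in Wnt-1 tumors (adjusted p = 0.000169).

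Cct2 took another course, with 0.13 ± 0.15 between the glands (adjusted p = 0.569) and 0.72 ± 0.13 from hyperplastic glands to Wnt-1 tumors (adjusted p = 4.58e-05). It was 1.41-fold higher in Wnt-1 than in Neu tumors (adjusted p = 6.14e-05). In Neu tumors the lead of Cct2 over virgin glands was 0.35 ± 0.10 (adjusted p = 0.00478). Cct4 and Cct5 were not called there, at 0.10 ± 0.07 and 0.38 ± 0.16 (adjusted p = 0.284 and 0.0576). Cct5 passed that test with arrays centred on their median (adjusted p = 0.0359), with quantile normalization, with one fit of all groups, or without virgin gland 17. Over the 8 group means, the 6 pairs of CCT subunits correlated at Pearson r of 0.625 to 0.961, a description over groups of unequal size.

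**Figure D3:**
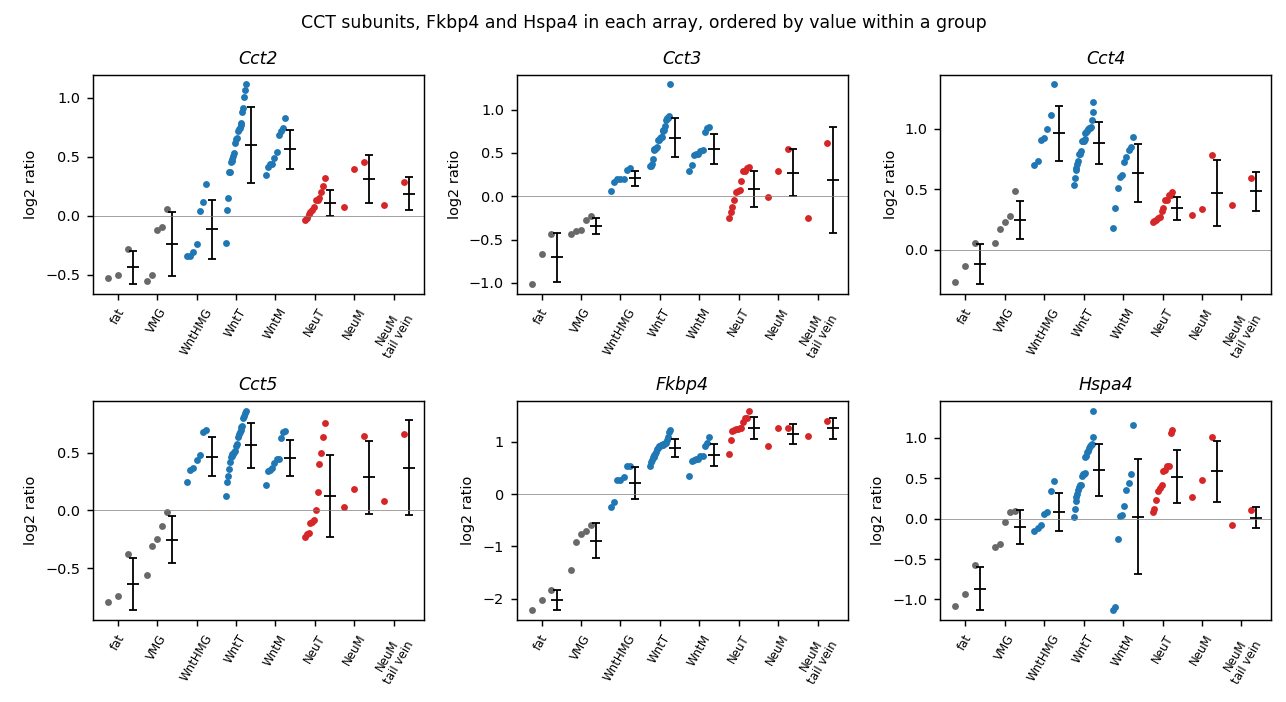
Log2 ratio to the reference (vertical axis) of 4 CCT subunits, Fkbp4 and Hspa4 in every 15k array (points, ordered by value within a group, blue for Wnt-1, red for Neu, gray for nontransgenic), with mean and SD of each group in black. Cct3 climbs from virgin to hyperplastic gland to Wnt-1 tumor without overlap, and Fkbp4 is at 0.53 or above in every tumor and at -0.59 or below in every virgin gland and fat sample.

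Prefoldin, which hands actin and tubulin chains to CCT, had 3 measured subunits, none of them members of the set. Pfdn4 and Vbp1 were higher in hyperplastic glands (0.40 ± 0.13 and 0.43 ± 0.14, adjusted p = 0.0404 and 0.0334) and in Wnt-1 tumors (0.46 ± 0.11 and 0.38 ± 0.10, adjusted p = 0.000533 and 0.00166) than in virgin glands. In Neu tumors all 3 were higher than in virgin glands, as were 26.8% of all genes. Pfdn5 was lower in Wnt-1 than in Neu tumors, at -0.41 ± 0.07 (adjusted p = 1.41e-05), opposite in direction to the CCT subunits.

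Fkbp4, an immunophilin that joins Hsp90 to steroid hormone receptors, had the largest called rise of any member outside the ER in both tumor types against virgin glands. It read -1.45, -0.92, -0.71, -0.77 and -0.59 in the virgin glands and -1.83, -2.02 and -2.21 in fat. Lowest, median and highest levels of Fkbp4 were -0.25, 0.27 and 0.54 in hyperplastic glands, 0.53, 0.93 and 1.23 in Wnt-1 tumors and 0.78, 1.26 and 1.60 in Neu tumors. The virgin glands lay below every hyperplastic gland and every tumor, and fat lay below the virgin glands. Fkbp4 was 2.16-fold higher in hyperplastic than in virgin glands (adjusted p = 0.000601), 3.43-fold higher in Wnt-1 tumors (adjusted p = 1.74e-14) and 4.45-fold higher in Neu tumors (adjusted p = 2.15e-10). From hyperplastic glands to Wnt-1 tumors it was 1.59-fold higher (adjusted p = 5.2e-07). Opposite to CCT, it was lower in Wnt-1 than in Neu tumors, at -0.38 ± 0.07 (adjusted p = 1.94e-05). That call was lost under quantile normalization between arrays, with -0.18 and adjusted p = 0.076. Over the 8 group means the members most like Fkbp4 were Ppil1 (r = 0.942) and Ppib (r = 0.926).

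Of 9 measured cochaperones of Hsp70 and Hsp90 outside the set, 3 were higher and 2 lower in Wnt-1 tumors than in virgin glands, and 4 were higher and 2 lower in Neu tumors. Among all genes 26% were higher and 26.5% lower in Wnt-1 tumors, and 26.8% and 28.8% in Neu tumors. Ptges3, which encodes the Hsp90 cochaperone p23, was higher in Wnt-1 tumors than in virgin glands by 0.72 ± 0.09 (adjusted p = 2.13e-07) and than in Neu tumors by 0.59 ± 0.07 (adjusted p = 4.05e-09). Bag2, an exchange factor of Hsp70, was higher than in virgin glands by 1.03 ± 0.10 in Wnt-1 and 1.07 ± 0.11 in Neu tumors (adjusted p = 5.01e-10 and 1.52e-07). St13, the Hsp70-interacting protein Hip, was lower in both, at -0.56 ± 0.12 and -0.46 ± 0.14 (adjusted p = 0.000196 and 0.0114).

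Among the other cytosolic and nuclear immunophilins, Fkbp3, a nuclear FK506-binding protein, went the opposite way to Fkbp4. It read 1.40, 0.91, 0.97, 0.11 and 0.25 in virgin glands and ran from 0.69 to 1.21 in hyperplastic glands, from -0.88 to -0.05 in Wnt-1 tumors and from -1.71 to 0.08 in Neu tumors. On the larger arrays no Wnt-1 tumor reached a gland of either kind, and no Neu tumor reached a virgin gland. Fkbp3 was 2.51-fold lower in Wnt-1 tumors than in hyperplastic glands (adjusted p = 1.44e-13) and 2.56-fold lower in Neu tumors than in virgin glands (adjusted p = 0.000102). Between the glands it differed by 0.21 ± 0.20 (adjusted p = 0.473). The 10 other Wnt-1 tumors, on the smaller arrays, did not repeat the low Fkbp3 levels. They ran from -2.31 to 0.98 with a median of 0.47, and 8 were above 0. Those 8 lay within the range of the virgin glands on the larger arrays. The cause of this difference between the kinds of array was not tested.

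Cyclophilin A (Ppia), the main cyclophilin of the cytosol, was higher than in virgin glands by 0.57 ± 0.12 in Wnt-1 tumors (adjusted p = 0.000216) and by 0.60 ± 0.09 in Neu tumors (adjusted p = 2.04e-05). The spliceosomal cyclophilin Ppil1 was higher by 1.06 ± 0.15 and 0.76 ± 0.10 (adjusted p = 1.13e-06 and 2.69e-06), without overlap in either tumor type. Ppie, another spliceosomal cyclophilin, and Ppig, which binds splicing factors in the nucleus, were higher in Wnt-1 than in Neu tumors, by 0.36 ± 0.09 and 0.36 ± 0.11 (adjusted p = 0.00136 and 0.00683). In Ppil4, a nuclear relative, the same difference was 0.59 ± 0.07 (adjusted p = 6.19e-09).

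The relatives of Hsp70 changed in opposite directions. Hspa4, an Hsp110 exchange factor, was higher than in virgin glands by 0.71 ± 0.15 in Wnt-1 tumors (adjusted p = 0.000245) and by 0.62 ± 0.15 in Neu tumors (adjusted p = 0.00226). Hspa14, an Hsp70 of the ribosome-associated complex, was higher in Wnt-1 than in Neu tumors by 0.39 ± 0.07 (adjusted p = 9.14e-06). The distant relatives Hspa12a and Hspa12b, the second known from endothelium, were lower in both tumor types than in virgin glands, without overlap. Hspa12b read 0.51, 0.63, 0.42, 0.95 and 0.65 in virgin glands and ran from -0.08 to 0.23 in hyperplastic glands. The glands did not overlap, and the difference was -0.54 ± 0.10 (adjusted p = 0.00183). Of 6 measured endothelial markers, 5 were also lower in hyperplastic than in virgin glands. The mean of the 6 on each array was 0.17 to 0.59 in virgin against -0.34 to -0.13 in hyperplastic glands. The part of endothelial cells in the Hspa12b difference was not tested.

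Of the 4 small heat shock proteins, 3 were lower in both tumor types than in virgin glands (of all genes, 26.5% were lower in Wnt-1 and 28.8% in Neu tumors), and the Neu tumors were particularly low in Hspb8. Hspb8, which works with the cochaperone Bag3 in clearing misfolded proteins, read 0.40, 0.34, 1.68, 1.32 and 1.52 in virgin glands and 1.93, 1.84 and 1.34 in fat. It ran from -0.23 to 0.24 in hyperplastic glands. Lowest, median and highest levels were -0.74, -0.04 and 0.60 in Wnt-1 tumors and -3.25, -2.46 and -0.86 in Neu tumors. Among the larger arrays, virgin and hyperplastic glands did not overlap, nor did Wnt-1 and Neu tumors. Hspb8 was 4.94-fold higher in Wnt-1 than in Neu tumors (adjusted p = 3.39e-13) and 10.9-fold lower in Neu tumors than in virgin glands (adjusted p = 9.91e-08). It was 2.09-fold lower in hyperplastic than in virgin glands (adjusted p = 0.00378), and the difference from there to Wnt-1 tumors was -0.08 ± 0.15 (adjusted p = 0.693). The permutation test described below did not call Hspb8 between the glands. Metastases lay near the tumors of their line: -0.55 to 0.59 in Wnt-1 metastases, -1.82, -2.71 and -1.73 in Neu metastases, and -3.38 and -2.83 after tail vein injection. On the 8.7k arrays, Hspb8 ran from -1.26 to 0.24 in Wnt-1 tumors. Its lowest levels there, -1.26 and -0.91, lay within the range of the Neu tumors on the larger arrays, and the others lay above that range. Hspb8 therefore did not separate the tumor types across both kinds of array, and the cause was not tested. Over the 8 group means, the members most like Hspb8 were Dnajb13 and Dnajc13 (r = 0.971 for each).

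Hspb6, abundant in muscle, read 1.90, 2.08, 1.98, 1.43 and 1.40 in virgin glands and ran from 1.01 to 3.20 in hyperplastic glands. It ran from -0.65 to 0.46 in Wnt-1 tumors and from -0.99 to 0.62 in Neu tumors. Glands of both kinds lay above every tumor, and Wnt-1 tumors were 4.43-fold below hyperplastic glands (adjusted p = 3e-10). The tumor types differed by 0.06 ± 0.12 in Hspb6 (adjusted p = 0.743). Hspb2, a small heat shock protein of muscle, was 2.40-fold lower in Neu tumors than in virgin glands (adjusted p = 0.000272) and 1.39-fold higher in Wnt-1 than in Neu tumors (adjusted p = 0.0154). Cryab, the related alpha B-crystallin, which is outside the set, was higher by 1.38 ± 0.20 in Wnt-1 than in Neu tumors (adjusted p = 6.64e-07). Hspb7, known from heart and muscle, was not called in any comparison of glands and tumors. The adipocyte and muscle markers given above were also lower in tumors than in virgin glands. From hyperplastic glands to Wnt-1 tumors, the median differences of these marker lists were -2.67 and -2.46. Over that step Hspb6 was lower and Hspb8 was not called. From virgin to hyperplastic glands, 9 of 10 adipocyte and 2 of 8 muscle markers were lower, with median differences of -1.24 and -0.28. There Hspb8 was lower and Hspb6 was not called, at 0.23 ± 0.34 (adjusted p = 0.668). Between the tumor types, 4 of 5 myoepithelial markers were higher in Wnt-1 tumors, as Hspb8 was. The part of these cell types in the small heat shock results was not tested.

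**Figure D4:**
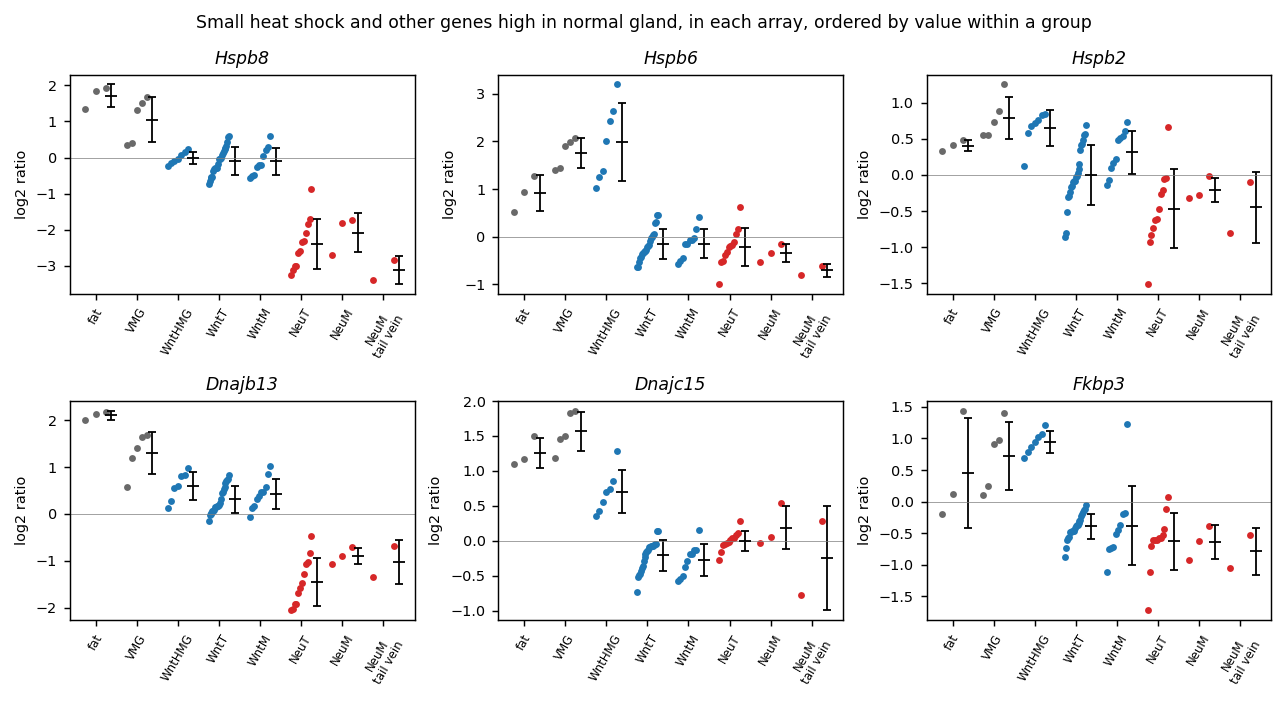
Log2 ratio to the reference (vertical axis) of Hspb8, Hspb6, Hspb2, Dnajb13, Dnajc15 and Fkbp3 in every 15k array (points, ordered by value within a group, blue for Wnt-1, red for Neu, gray for nontransgenic), with mean and SD of each group in black. Hspb8 and Dnajb13 separate Neu from Wnt-1 tumors, while Hspb6 and Fkbp3 separate virgin glands from tumors of both kinds.

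The 8 cytosolic J proteins had no common direction. Dnajb1, the classical heat-induced Hsp40, was 1.84-fold higher in Wnt-1 tumors than in hyperplastic glands (adjusted p = 6.58e-06) and 0.57 ± 0.17 above virgin glands on the log2 scale (adjusted p = 0.00521). Dnajb13, known from the radial spokes of cilia and sperm tails, read 0.57, 1.20, 1.42, 1.68 and 1.65 in virgin glands and 2.18, 2.14 and 2.00 in fat. It ran from -0.15 to 0.82 in Wnt-1 tumors and from -2.05 to -0.48 in Neu tumors. The tumor types did not overlap in Dnajb13, and it was 3.38-fold higher in Wnt-1 tumors (adjusted p = 1.69e-13). In Neu tumors it was 6.72-fold below virgin glands (adjusted p = 3.57e-08). Dnajc2, part of the ribosome-associated complex with Hspa14, was 1.54-fold higher in Wnt-1 than in Neu tumors (adjusted p = 3.55e-09). Dnajc13, which works on endosomes, was higher there by 0.42 ± 0.06 (adjusted p = 1.28e-06).

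Dnaja4, a J protein of the cytosol, was lower in Wnt-1 tumors than in Neu tumors, 1.37-fold (adjusted p = 2.57e-06), and than in both kinds of gland, without overlap. Its 3 clones differed: against virgin glands they gave 0.22, -0.74 and -1.75 in Wnt-1 tumors and 0.36, 0.25 and -1.53 in Neu tumors. Dnajc27, a J protein with a Rab-like domain, was lower in Wnt-1 than in Neu tumors (log2 difference -0.42 ± 0.16, adjusted p = 0.0297), a call lost under quantile normalization (adjusted p = 0.076).

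In the ER, the lectin chaperone calreticulin differed most from virgin glands in both tumor types. Calr read -3.58, -3.61, -2.10, -2.90 and -2.76 in virgin glands and ran from -3.65 to -1.97 in hyperplastic glands. Lowest, median and highest levels were -3.14, -0.97 and -0.21 in Wnt-1 tumors and -1.74, -0.49 and -0.14 in Neu tumors. The Neu tumors lay above every virgin gland, and some Wnt-1 tumors were as low as glands. Calr was 3.78-fold higher in Wnt-1 tumors (adjusted p = 3.48e-05) and 5.19-fold higher in Neu tumors (adjusted p = 2.1e-07) than in virgin glands. Between virgin and hyperplastic glands it differed by 0.16 ± 0.29 (adjusted p = 0.717), and from hyperplastic glands to Wnt-1 tumors it was 3.37-fold higher (adjusted p = 1.32e-05).

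Pdia4, a disulfide isomerase of the ER lumen, and Dnajc3, a J protein that aids Hspa5 and restrains the ER stress kinase Perk, likewise had lower group means in glands of both kinds than in Wnt-1 tumors, and lower means there than in Neu tumors. Pdia4 was at -0.48 or below in virgin glands, and ran from -1.03 to -0.48 in hyperplastic glands, from -0.70 to 0.47 in Wnt-1 tumors and from -0.15 to 1.00 in Neu tumors. The Neu tumors lay above the virgin glands without overlap, and the Wnt-1 tumors overlapped both. Pdia4 was 1.62-fold higher in Wnt-1 tumors than in hyperplastic glands (adjusted p = 4.96e-05) and 2.16-fold higher in Neu tumors than in virgin glands (adjusted p = 1.73e-05). Dnajc3 read -0.83, -2.07, -1.02, -1.28 and -1.24 in virgin glands, and ran from -1.84 to -1.29 in hyperplastic glands, from -1.75 to -0.12 in Wnt-1 tumors and from -0.94 to 0.18 in Neu tumors. All of these Dnajc3 ranges overlapped except that of hyperplastic glands and Neu tumors. Dnajc3 was 1.51-fold higher in Wnt-1 tumors than in hyperplastic glands (adjusted p = 0.00627). Against virgin glands it differed by 0.34 ± 0.22 in Wnt-1 tumors (adjusted p = 0.202) and by 0.89 ± 0.20 in Neu tumors (adjusted p = 0.00124). Over the 8 group means, the members most like Calr were Ppia and Pdia4 (r = 0.947 for each), Dnajc3 (r = 0.919) and Ppil2 (r = 0.886). Ppia and Ppil2 are cyclophilins outside the ER, so the likeness was not particular to ER members. Calr and Dnajc3 are the members whose printed promoters hold the exact ER stress response element, and Pdia4 has none in its window.

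Cyclophilin B (Ppib), which works in the ER, was higher in hyperplastic than in virgin glands, by 0.42 ± 0.14 (adjusted p = 0.0391), without overlap. This call was lost without virgin gland 13, 27, 28 or 29 (adjusted p = 0.0853, 0.0984, 0.0553 and 0.0536). Against virgin glands Ppib was higher by 0.44 ± 0.10 in Wnt-1 and by 0.62 ± 0.11 in Neu tumors (adjusted p = 0.000738 and 9.52e-05).

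Between the tumor types, the 14 ER members split into 7 lower and 3 higher in Wnt-1 tumors, where 23% of all genes were lower and 22.8% higher, and 4 were not called. The 7 lower ones were Dnajc3 (-0.55 ± 0.15), Fkbp11 (-0.41 ± 0.12), Pdia4 (-0.40 ± 0.11), Dnajb11 (-0.34 ± 0.11), Fkbp2 (-0.31 ± 0.06), Dnajc10 (-0.28 ± 0.09) and Ppib (-0.19 ± 0.07), with adjusted p from 0.000136 for Fkbp2 to 0.0304 for Ppib. Dnajb11 and Dnajc10 encode cofactors of Hspa5, and Fkbp2 and Fkbp11 proline isomerases of the ER. The Ppib call was lost under quantile normalization, with -0.12 and adjusted p = 0.176. Calr was not called, at -0.46 ± 0.23 (adjusted p = 0.104). The 3 higher ones were proline isomerases and differed by more: Fkbp9 was 2.55-fold, Ppic 2.14-fold and Fkbp7 1.98-fold higher in Wnt-1 tumors (adjusted p = 7.85e-12, 3.93e-08 and 2.45e-08).

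Fkbp9 ran from 0.79 to 1.39 in virgin glands, from 0.29 to 1.29 in Wnt-1 tumors and from -1.41 to 0.50 in Neu tumors. Ppic, cyclophilin C, read 0.16, 0.49, 0.34, 0.33 and 0.24 in virgin glands, and ran from -0.62 to 0.85 in Wnt-1 tumors and from -1.53 to 0.27 in Neu tumors. The Wnt-1 tumors spanned the virgin glands in Ppic and overlapped them in Fkbp9, while the Neu tumors lay below them, wholly in Fkbp9 and with overlap in Ppic. Against virgin glands, Neu tumors were 3.02-fold lower in Fkbp9 (adjusted p = 8.24e-06) and 2.30-fold lower in Ppic (adjusted p = 0.000136). Ppic was not called in Wnt-1 tumors, at -0.10 ± 0.16 (adjusted p = 0.604). Fkbp7 was lower than in virgin glands (log2 difference -1.46 ± 0.21) in Neu tumors (adjusted p = 1.36e-05) and lower in Wnt-1 tumors than in hyperplastic glands (log2 difference -0.61 ± 0.13, adjusted p = 0.00039). Pdia2, an isomerase of the pancreas, had means between -6.78 and -4.83 in the groups of the 15k arrays, far below a reference that includes pancreas.

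**Figure D5:**
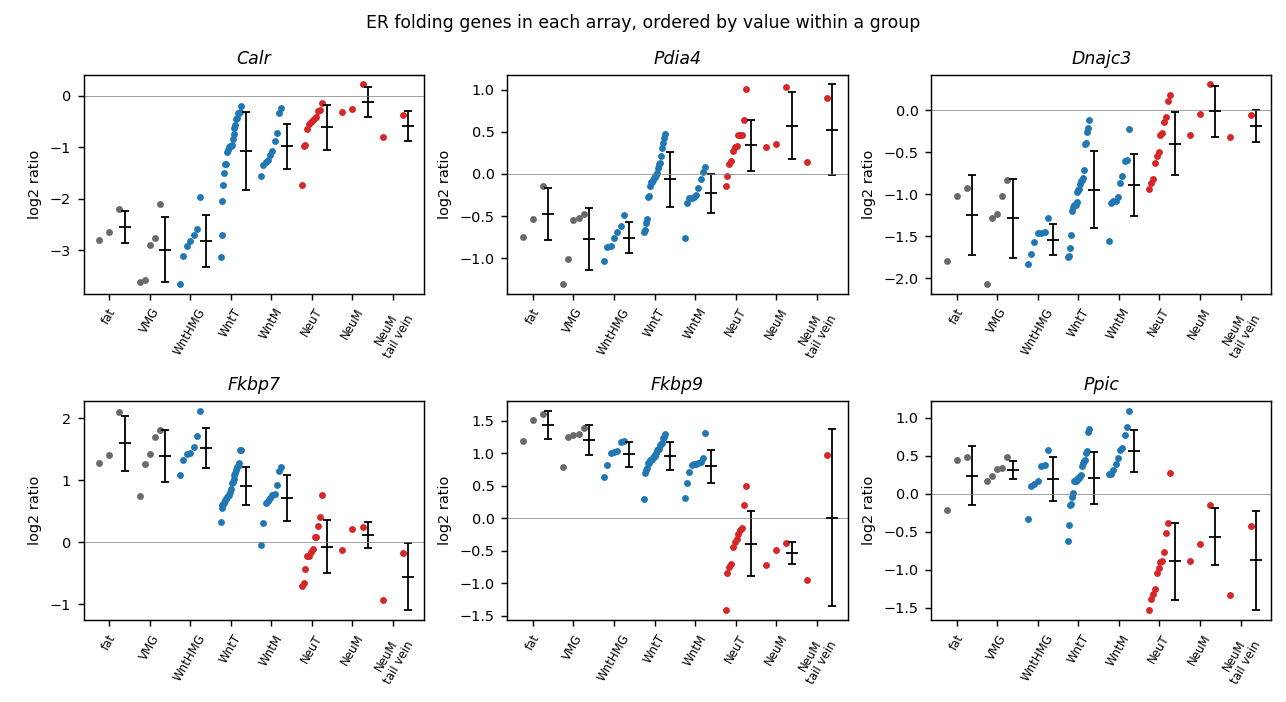
Log2 ratio to the reference (vertical axis) of 6 ER folding genes in every 15k array (points, ordered by value within a group, blue for Wnt-1, red for Neu, gray for nontransgenic), with mean and SD of each group in black. By group mean, Calr, Pdia4 and Dnajc3 are lowest in glands and fat and highest in Neu samples, whereas Fkbp7, Fkbp9 and Ppic are lowest in Neu samples.

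The partners of the ER members were counted from a separate list of 24 genes of ER folding and degradation, of which 13 were measured. Of these, 7 were lower in Wnt-1 than in Neu tumors and 0 were higher, where 23% of all genes were lower. The largest differences were those of Sel1l, a scaffold of ER-associated degradation (-1.26 ± 0.18, adjusted p = 4.65e-07), and Serp1, which protects membrane proteins under ER stress (-0.98 ± 0.13, adjusted p = 1.09e-07). Eif2ak3, which encodes the ER stress kinase Perk, was lower (log2 difference -0.78 ± 0.08, adjusted p = 1.82e-10) as was the ER stress factor Atf6 (log2 difference -0.31 ± 0.10, adjusted p = 0.0109). Against virgin glands the list went both ways, with 5 higher and 4 lower in Neu tumors (26.8% and 28.8% of all genes) and 2 higher and 7 lower in Wnt-1 tumors (26% and 26.5%). Creld2, which is induced by ER stress, was higher by 0.81 ± 0.11 in Wnt-1 and 0.82 ± 0.17 in Neu tumors (adjusted p = 5.87e-07 and 0.000514). Hyou1, the large Hsp70 of the ER lumen, was lower, at -1.49 ± 0.13 and -1.19 ± 0.13 (adjusted p = 8.26e-11 and 6e-07), opposite in direction to Calr and Pdia4. The degradation factor Derl3 was lower as well, at -1.98 ± 0.18 and -1.72 ± 0.22 (adjusted p = 1.65e-10 and 2.63e-06).

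Of the 8 mitochondrial members, 4 were lower in hyperplastic than in virgin glands and 0 were higher, where 14.3% of all genes were lower. Only Dnajc15 of these 4 was also called by the permutation test at P under 0.001 that is described below. From hyperplastic glands to Wnt-1 tumors, 4 of the 8 were higher and 2 lower, against 21.9% and 22.2% of all genes. Hspa9 and Ppif were among the higher, by 0.49 and 0.32, but that permutation test called neither. The 3 clones of Hspa9 ran from -0.01 to 1.03 over this step. Ppif was not called in limma with one fit of all groups (adjusted p = 0.0534). Dnajc15, which controls the motor of the inner membrane import channel, ran from 1.18 to 1.86 in virgin glands, from 0.35 to 1.28 in hyperplastic glands, from -0.73 to 0.15 in Wnt-1 tumors and from -0.27 to 0.28 in Neu tumors. The glands overlapped each other and no tumor. Dnajc15 fell by 0.86 ± 0.16 from virgin to hyperplastic glands (adjusted p = 0.00211) and decreased by 0.91 ± 0.10 from there to Wnt-1 tumors (adjusted p = 2.1e-08). Wnt-1 tumors were 3.42-fold below virgin glands (adjusted p = 1.44e-13).

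Hspa9, the mitochondrial Hsp70, read -0.76, -0.89, 0.58, 0.35 and 0.37 in virgin glands 13, 17, 27, 28 and 29 and ran from -1.46 to -0.68 in hyperplastic glands. Virgin glands 13 and 17 lay within the range of the hyperplastic glands and the other 3 above it. The means were -0.07 ± 0.70 and -1.07 ± 0.26 (SD, adjusted p = 0.0111), and the 3 clones of Hspa9 gave -0.38, -1.04 and -1.59. Dnaja3, a J protein of the matrix, was at -0.10 and 0.06 in virgin glands 13 and 17 and at 0.68, 0.92 and 1.02 in the others, with hyperplastic glands from -0.58 to -0.04 (-0.78 ± 0.19, adjusted p = 0.00984). Hspb8 was also lowest in these 2 virgin glands, as its values above show. Cyclophilin D (Ppif), which regulates the permeability transition pore, differed between the glands by -0.49 ± 0.17, just under the threshold (adjusted p = 0.0498), and was not called with arrays centred on their median (adjusted p = 0.0608).

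In the lung metastases few members departed from the tumors of their line. In Wnt-1 metastases against Wnt-1 tumors, 3 of 60 genes were called, all lower, where 5.46% of all genes were called (2.88% higher, 2.58% lower). None of the 60 genes was free of overlap (0.27% of all genes were). The 3 called were Hspa4 (-0.58 ± 0.17, adjusted p = 0.0439), Cct4 (-0.25 ± 0.08, adjusted p = 0.0469) and Dnajc30, a mitochondrial J protein (-0.22 ± 0.07, adjusted p = 0.0434). Hspa4 ran from -1.13 to 1.16 in metastases and from 0.02 to 1.34 in tumors, and Cct4 from 0.18 to 0.93 and from 0.53 to 1.22, so both overlapped widely. Without the arrays of SD over 1.3 none of the 3 was called (adjusted p = 0.0921 for Hspa4, 0.348 for Cct4 and 0.214 for Dnajc30). In these metastases 6 of 8 lung epithelium markers were higher. The mean of the 8 on each array was -0.74 to 1.39, against -4.36 to -2.16 in tumors, and the part of lung cells was not tested. In Neu metastases against Neu tumors, limma called 0 of 60 genes, where 0.155% of all genes were called, and 0 of the 60 but 0.94% of all genes did not overlap. There, Fkbp11, Ppia and Ppih had an unadjusted p under 0.05, and the lowest adjusted p was 0.377. The test of whether the difference between metastasis and tumor was unlike in the 2 lines called 0 of 60 genes (0.0515% of all genes), with 4 at an unadjusted p under 0.05: Cct4, Fkbp11, Hspb11 and Ppia.

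The mammary gland is rich in fat, and intestinal fat was measured beside it. Against virgin glands, 7 of 60 genes were called, 3 higher and 4 lower, where 7.49% of all genes were called (4.3% higher, 3.19% lower), and 14 genes did not overlap (27.8% of all genes). Higher in fat were Ppip5k1 (2.02-fold, adjusted p = 0.00912), Hspa12a (1.98-fold, adjusted p = 0.0239) and Hspa12b (1.53-fold, adjusted p = 0.039). Lower were Fkbp4 (2.19-fold, adjusted p = 0.0235), Dnajc2 (1.96-fold, adjusted p = 0.0244), Hspb7 (1.86-fold, adjusted p = 0.0432) and Hspa4 (1.69-fold, adjusted p = 0.0419). The 3 fat samples read 1.96, 1.27 and 1.31 for Hspa12a and 0.85, 0.84 and 0.97 for Ppip5k1, above all virgin glands. Only Ppip5k1 was still called when virgin gland 17, 27 or 29 was left out. The count was 3 without virgin gland 28, 4 without virgin gland 13 or fat sample 45 or 46, and 20 when all groups shared one estimate of the spread. Fat sample 44, whose ratios had the widest spread, read -7.93 for Hspa4l and -7.62 for Dnajc11, against -0.81 and -0.93 for Hspa4l and -0.36 and -0.47 for Dnajc11 in the other samples.

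On the 8.7k arrays, limma called 0 of 47 genes between p53 null and other Wnt-1 tumors, where 0.507% of all genes were called, and 9 members had an unadjusted p under 0.05. A permuted t statistic at P under 0.001, taken from 100 regroupings pooled over all genes, called 1, Hspa14. The lowest adjusted p, 0.0788, was that of Hspa4, which ran from -0.94 to 0.27 in the p53 null tumors and from 0.02 to 0.98 in the others (-0.69 ± 0.18). Hspa14 ran from 0.24 to 0.41 in p53 null and from -0.31 to 0.21 in other tumors, and was the 1 member without overlap, where 0.454% of all genes did not overlap. Its difference was 0.32 ± 0.10 (adjusted p = 0.114). The means of Cct2, Cct3, Cct4 and Cct5 in the 10 other tumors were 0.84, 0.72, 0.92 and 0.54, and those in p53 null tumors 0.59, 0.86, 0.56 and 0.71.

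Single tumors of one type also differed. The SD of a member over the 23 Wnt-1 tumors had a median of 0.249 (all genes 0.274) and over the 12 Neu tumors of 0.259 (all genes 0.263). Covariation within a tumor type was tested for Cct3 with Cct5 and for Ppia with Ppib. Cct3 and Cct5 were correlated over the 23 Wnt-1 tumors (Pearson r = 0.632, permutation p = 0.00112, Spearman rho = 0.657, permutation p = 0.00097) and over the 12 Neu tumors (r = 0.793, permutation p = 0.00298, rho = 0.685, permutation p = 0.0165). Without the 2 arrays farthest from the median of Cct3, r was 0.594 and 0.866. Ppia and Ppib were correlated in Wnt-1 tumors (r = 0.758, permutation p = 5e-05, rho = 0.682, permutation p = 0.00053), with r = 0.646 without 2 arrays. In Neu tumors r was -0.409 (permutation p = 0.186, rho = -0.322, permutation p = 0.309), and 0.113 without 2 arrays. Over these 4 tests the Benjamini-Hochberg adjusted p of r was 0.00224 and 0.00397 for the CCT pair and 0.0002 and 0.186 for the cyclophilins, and that of rho 0.00194, 0.022, 0.00194 and 0.309. All values of an array share its hybridization and scaling, and with arrays centred on their median the r values were 0.629, 0.796, 0.758 and -0.395.

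Clones of one gene did not always give like values. In 11 genes they differed by over 1 on the log2 scale in at least 1 comparison. Between Wnt-1 tumors and virgin glands, the 4 clones of Dnajc14, a J protein of the ER membrane, gave 0.02, -0.29, -0.73 and -1.19, and the 3 of Ppil2, a cyclophilin with a U-box, gave 0.69, 0.59 and -0.40. On the mean of its clones Dnajc14 was lower (-0.55 ± 0.08, adjusted p = 1.01e-06) and Ppil2 was higher (0.29 ± 0.11, adjusted p = 0.0213). In p53 null tumors the 2 clones of Dnajb12, also of the ER membrane, gave -0.08 and -2.45, neither of them called. The other genes of this kind beside Dnaja4 and Hspa9 were Dnajb11, Dnajc1, Dnajc27, Dnajc30, Hspb7 and Pdia2, in comparisons of fat, metastases or Neu tumors.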

How the data were processed

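Values were deposited by the authors as log2 ratios of Cy5 sample to Cy3 reference, normalized per array, from GenePix scans of NCI 15k and 8.7k cDNA slides. The authors scored each spot and dropped genes of mean quality under 0.5. Scores were not analysed here, so that filter was not repeated. Clones were named through the platform's probe table, and clones with several symbols or none were left out. Log2 ratios were averaged over the clones of a gene, and groups were fitted pair by pair in R 4.3.3 with limma 3.58.1 (lmFit, eBayes) over all genes, with Benjamini-Hochberg adjusted p under 0.05. Folds are ratios of geometric means. The medians of the 15k arrays ranged from -0.144 to 0.0431. Precision is limited by how many arrays a group holds. The fit was tested on simulated data. Correlations used 1e+05 permutations, two-sided (Python 3.11.15).

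Text names the 6 largest called changes per direction and comparison, a core list, and genes whose clones differed by over 1. Genes that fall outside this rule, Ppie, Ppig, Hspa14, Dnajc13, Fkbp2, Dnajc10, Dnajc14 and Ppil2 in some comparisons and the partner genes among them, were named after their values were seen. Members and lists were chosen with earlier results of these data known. Alternatives were other scalings, single clones, other variance models, a permutation test at P under 0.001 (t statistics of 100 regroupings, or all 56 for fat, pooled over genes, whereas the authors took P per gene from more permutations), a replicate block and left-out arrays. For 3 further tumors on the 8.7k arrays values are not analysed here.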

Additional observations from a re-analysis of the deposited data

Results flagged for a closer look

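Single arrays far from the rest of their group, by Dixon's criterion, were found in 5 of 98 tests of a gene in a group of 5 to 10 arrays, where chance flags about 1 in 20. Fkbp9 was 0.79 in virgin gland 13, against 1.26 to 1.39 in the other virgin glands. In hyperplastic gland 14, Hspb2 was 0.12, against 0.59 to 0.84 in the others. Hyperplastic gland 5 was high in both cyclophilins tested for covariation, with Ppia at 1.26 (0.27 to 0.60 in the others) and Ppib at 0.80 (0.09 to 0.39). Pdia4 was -0.76 in Wnt-1 metastasis 42, against -0.34 to 0.09 in the other metastases.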

How the results depend on the processing

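Calls on the values of named genes (each the mean of its clones) under other settings were set against those of the main fit. Of these values, 1761 were called or not called as before, 87 lost the call and 12 gained one. The 1761 include values called in neither fit, and refits that share most arrays. Between the glands, in Wnt-1 metastases and in fat many calls were lost, as counts below show. Among values called in the main fit or under the other setting, 0 changed sign. Changes of sign where neither fit gave a call were not counted. Single clones are not in these counts. Of 10 calls on named genes with several clones, 2 had a clone of opposite sign, not called itself: Dnaja4 and Hspa9 from hyperplastic glands to Wnt-1 tumors. Dnaja4 also had one against virgin glands, with the values given above. The permutation test, pooled over genes, called 6 genes between the glands (13 by limma), 18 from hyperplastic glands to Wnt-1 tumors (30 by limma), 0 in Wnt-1 metastases, 1 in fat and 1 in p53 null tumors. The 6 were Cct3, Cct4, Cct5, Dnajc15, Fkbp4 and Hspa12b. Among named genes it also lost Dnajb1 in Wnt-1 tumors against virgin glands, and Dnajc27, Fkbp11 and Ppib between the tumor types. From hyperplastic glands to Wnt-1 tumors it lost Hspa9, Ppia and Ppif. In Wnt-1 metastases, where limma called 3, each clone fitted alone gave 1, quantile normalization 1 and leaving out arrays of SD over 1.3 gave 0. In fat, where limma called 7, quantile normalization gave 3 and one fit of all groups 20. Leaving out single arrays gave 9 to 17 calls between the glands, 32 to 34 in Wnt-1 and 32 to 35 in Neu tumors against virgin glands, 1 to 7 in fat and 0 in Neu metastases. For counts under other settings, here and above, the shares of all genes called are not given. Such counts do not show whether the set moved more than all genes did. The correlation of Ppia with Ppib in Neu tumors changed sign, to 0.113, without 2 arrays. The causes were not tested. Metastases and tumors share 7 replicate numbers in the Wnt-1 and 3 in the Neu line. Same-numbered deviations correlated at -0.06 to 0.30 and -0.01 to 0.10. Wnt-1 metastasis 50 was closest to the tumor of its own number, and the others were closer to another tumor. Such correlations cannot decide whether a shared number marks the same animal. The main fit did not take the numbers as pairs and treated the arrays as independent. With the number as a random replicate block limma called 3 and 0 members, and with a fixed block on shared numbers 0 and 0. The number of arrays, 3 for fat and for Neu metastases, limits these comparisons, and signal over background was not analysed here.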
